A study of Homo sapiens with 10 samples.

Results

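The spliceosomal small nuclear RNAs (snRNAs) are the RNA subunits of the particles that remove introns from pre-mRNA. Written here by gene symbol, 10 such RNAs were taken by name from the 39472 symbols of the count tables: RNU1-1, RNU2-1, RNU4-1, RNU4-2, RNU5A-1 and RNU6-1 of the major spliceosome, and RNU11, RNU12, RNU4ATAC and RNU6ATAC of the minor spliceosome. All 10 have a row, and all of their counts lie in the non-coding RNA (ncRNA) class, with 0 counts outside it. Of the 10, 6 had counts, and 4 (RNU1-1, RNU4-1, RNU6-1 and RNU11) stood at 0 in each of the 10 libraries.

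The study recovered RNA bound to eIF4A by enhanced crosslinking and immunoprecipitation (eCLIP), in which ultraviolet light fixes a protein to the RNA it touches, the protein is pulled down and the attached RNA fragments are sequenced. The labels name HEK 293T, an established human embryonic kidney line, and a strain with FLAG-tagged eIF4A. They do not say which eIF4A gene carries the tag, how it is expressed, or whether the line is 1 clone, and an untagged control was not analysed here. Before crosslinking at 254 nm and 400 mJ/cm2, cells spent 1 h in silvestrol at 20 nM, in CR-1-31-B at 20 nM, or in the vehicle DMSO. Each of these 3 groups has 3 libraries made with an anti-FLAG antibody and numbered 1 to 3. In addition, 1 input library, numbered 2, was made without antibody. No dose or treatment time is given for the input, so whether its cells received a compound or DMSO is not known here. The title of the series calls the compounds rocaglates.

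In the major spliceosome U1 pairs with the start of the intron and U2 with its branch point, while U4, U5 and U6 arrive as a joint particle in which U4 holds U6 inactive. The minor spliceosome removes a rare class of introns. There U11 and U12 stand in for U1 and U2, U4atac and U6atac for U4 and U6, and U5 is shared. Most of these RNAs bind a ring of Sm proteins in the cytoplasm before they return to the nucleus, whereas U6 and U6atac are made by RNA polymerase III and carry a ring of LSm proteins. In its role in translation, the helicase eIF4A acts in the cytoplasm. There it prepares the 5′ leader of mRNAs for the ribosome as part of eIF4F. Since the tagged eIF4A gene is not given, this role is background and is not established for the tagged protein. Rocaglates are known to hold eIF4A on RNA, with a preference for runs of purines (A and G).

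The sequences of 5 of the RNAs that had counts are given below with RNU4-1, the near-copy of RNU4-2, because both the origin of the counts and the purine content bear on the values that follow. They are read 5′ to 3′ from the transcripts of GENCODE release 29 (GRCh38), written as DNA letters, with the longest run of purines in capitals. Where runs tie, only the first is marked: both U4 RNAs end in an unmarked run of the same length.
RNU2-1: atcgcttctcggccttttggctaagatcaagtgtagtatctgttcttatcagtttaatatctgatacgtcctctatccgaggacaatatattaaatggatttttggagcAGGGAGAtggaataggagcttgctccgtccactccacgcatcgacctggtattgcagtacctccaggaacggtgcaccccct
RNU12: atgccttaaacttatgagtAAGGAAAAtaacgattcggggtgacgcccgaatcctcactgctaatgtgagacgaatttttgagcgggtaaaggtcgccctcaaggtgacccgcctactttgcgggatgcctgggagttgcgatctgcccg
RNU4ATAC: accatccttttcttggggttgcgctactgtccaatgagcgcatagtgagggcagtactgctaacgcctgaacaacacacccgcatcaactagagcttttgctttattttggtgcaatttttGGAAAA
RNU6ATAC: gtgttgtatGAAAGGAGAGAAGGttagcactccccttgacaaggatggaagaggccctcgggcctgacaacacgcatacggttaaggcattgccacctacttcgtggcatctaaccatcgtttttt
RNU4-2: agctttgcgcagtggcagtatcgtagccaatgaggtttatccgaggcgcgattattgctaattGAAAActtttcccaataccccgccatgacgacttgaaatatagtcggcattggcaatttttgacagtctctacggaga
RNU4-1: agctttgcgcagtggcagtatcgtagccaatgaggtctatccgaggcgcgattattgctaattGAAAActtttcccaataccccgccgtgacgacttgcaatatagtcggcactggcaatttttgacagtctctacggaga

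RNU6ATAC had the longest purine run, 14 bases from position 10 to 23, counted from 1 at the 5′ end. In the other sequences shown, the runs held 8 bases (RNU12), 7 (RNU2-1), 6 (RNU4ATAC) and 5 (both U4 RNAs). A run of at least 14 purines occurred in 3.06% of the 980 distinct snRNA transcripts of 107 to 191 bases in the same annotation, and in 4.67% of the 3874 distinct transcripts of any kind in that length range. The letters ATTTNTG or ATTTTTTG, a simple form of the Sm site, were searched on the RNA strand alone. They occurred in each sequence shown but that of RNU6ATAC, and not in RNU6-1. In both of these the last 5 letters are all T. Of the 980 snRNA transcripts, 34.6% held them.

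The members differ in how far a short read can name its gene. Every 30-base window of RNU4ATAC (chr2:121530881-121531007, + strand) and of RNU11 (chr1:28648600-28648733, + strand) is found in no other annotated gene. The same held for 89.3% of the windows of RNU12 (chr22:42615244-42615393, + strand) and 57.1% of those of RNU4-2 (chr12:120291763-120291903, - strand). For RNU4-1 (chr12:120293097-120293237, - strand), which differs from RNU4-2 at 4 of 141 positions, the share was 46.4%. It was 12.4% for RNU6ATAC (chr9:134164439-134164564, - strand). No window of RNU1-1 (chr1:16514122-16514285, - strand), RNU2-1 (chr17:43233787-43233977, - strand) or RNU6-1 (chr15:67839939-67840045, - strand) is unique, since the whole sequence also stands in 7, 10 and 6 other annotated genes. How reads with several possible origins were assigned is not given in the sources used here. A count of 0 for RNU1-1, RNU4-1 or RNU6-1, and the split between U1, U4 or U5 copies, are therefore uncertain. So are the counts of RNU2-1 and RNU6ATAC, and with them the shares and ratios below that use them. RNU11 is at 0 although its windows are unique. A lincRNA exon overlaps RNU11 and another overlaps RNU12 on the same strand. RNU2-1 lies in an intron of CCDC200 on the same strand, and RNU4ATAC in an intron of CLASP1 on the opposite strand and of AC012447.1 on the same strand. Same-strand lincRNA exons also overlap RNU5E-1 and RNVU1-14, named below. For the 4 members at 0, with levels given as CPM (a count relative to the total of its library), a floor of 3 counts corresponds to 1.37 CPM in the input and to at most 3.49 CPM in an anti-FLAG library.

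The 9 anti-FLAG libraries held between 858733 and 1804732 counts each, the input 2193699. The ncRNA class took 12.0% to 20.8% of the counts in the anti-FLAG libraries and 39.5% in the input. Nothing in the labels says that libraries of a group came from separate cultures, so the p-values below measure the spread between these libraries, which may be technical.

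In the input the counts of the 6 RNAs were almost entirely those of RNU2-1. RNU2-1 had 294926 counts there, 13.4% of the whole library (95% Clopper-Pearson interval 13.4% to 13.5%, counting error only) and 92.0% (91.9% to 92.1%) of the counts of the 6 RNAs. In the anti-FLAG libraries the same 6 RNAs were dominated by the minor spliceosome: RNU12, RNU4ATAC and RNU6ATAC together took 6.30% of the counts of the 6 RNAs in the input (6.22% to 6.39%) and 70.5% ± 2.74 (SD, n = 3) in DMSO. Silvestrol gave 71.8% ± 2.27 for the same share, and CR-1-31-B 72.6% ± 8.02. Each of the 9 anti-FLAG libraries lay between 63.3% and 77.7%. This share does not depend on how libraries are scaled to each other. It may depend on how reads with several possible origins were assigned, which was not tested.

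**Figure D1:**
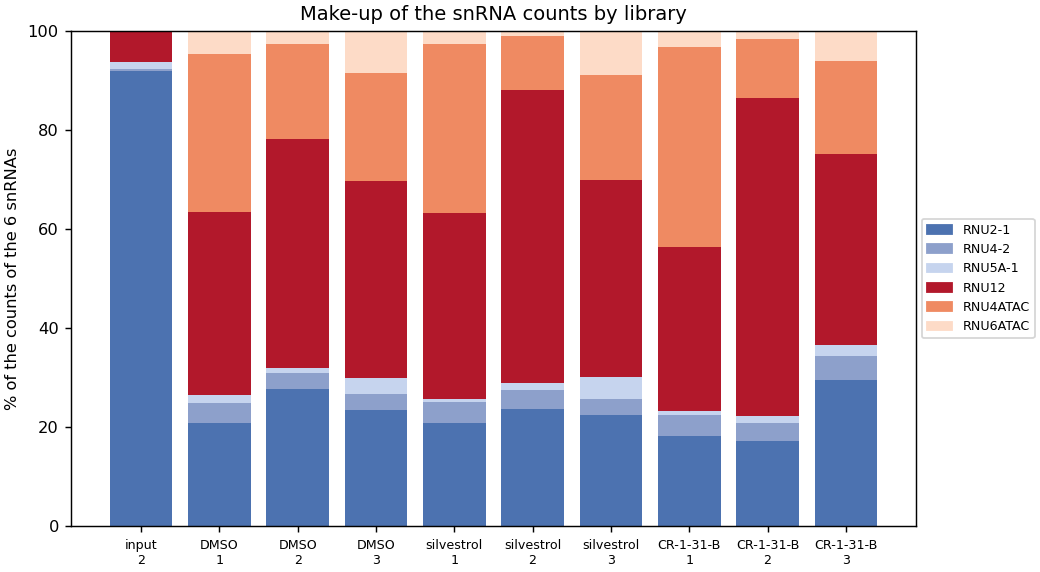
Share (%) of the summed counts of the 6 counted snRNAs taken by each of them, 1 bar per library, labelled by group and number. Blue shades are RNAs of the major spliceosome (RNU5A-1 serves both) and red shades RNAs of the minor spliceosome. RNU2-1 fills 92.0% of the input bar and between 17.1% and 29.5% of the others.

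Within the set, RNU2-1 took 24.0% ± 3.39 in DMSO where it took 92.0% in the input, and RNU12, its counterpart in the minor spliceosome, took 41.0% ± 4.73 against 6.10%. The ratio of RNU12 to RNU2-1 counts was 0.0663 in the input and 1.71 ± 0.0502 (SD, n = 3) in DMSO, with libraries from 1.67 to 1.77. The CR-1-31-B libraries averaged 2.29 ± 1.29 and those with silvestrol 2.02 ± 0.418. The U4-type RNAs differed the same way: RNU4ATAC had 0.300 counts per RNU4-2 count in the input and 6.77 ± 1.17 in DMSO. All 9 anti-FLAG libraries were above the input in both ratios. RNU4-2 also stands for any RNU4-1 reads assigned to it.

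Together the 6 RNAs made up 14.6% of the input (14.6% to 14.7%) and 0.818% ± 0.173 (SD, n = 3) of the DMSO libraries. CR-1-31-B gave 0.822% ± 0.135 and silvestrol 0.825% ± 0.373, so the group means lay closer together than the libraries within a group. As a share of the ncRNA class alone, the sum was 36.9% in the input and 5.25% ± 1.42 in DMSO.

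Levels of different RNAs were compared per kilobase of transcript. In DMSO the order was RNU12 (22521 ± 6671 CPM per kb), RNU4ATAC (15654 ± 5466), RNU2-1 (10357 ± 3244), RNU6ATAC (3121 ± 1121), RNU4-2 (2069 ± 524) and RNU5A-1 (1280 ± 435). The first 3 overlapped as neighbours and so did the last 3, whereas the ranges of RNU2-1 and RNU6ATAC did not overlap. RNU12, RNU4ATAC and RNU2-1 kept the first 3 places by the mean with both compounds, and RNU4-2 and RNU6ATAC, with overlapping ranges, changed places. In the input the order began with RNU2-1 (703885 CPM per kb) and RNU12 (59391) and ended with RNU4ATAC (1098).

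**Figure D2:**
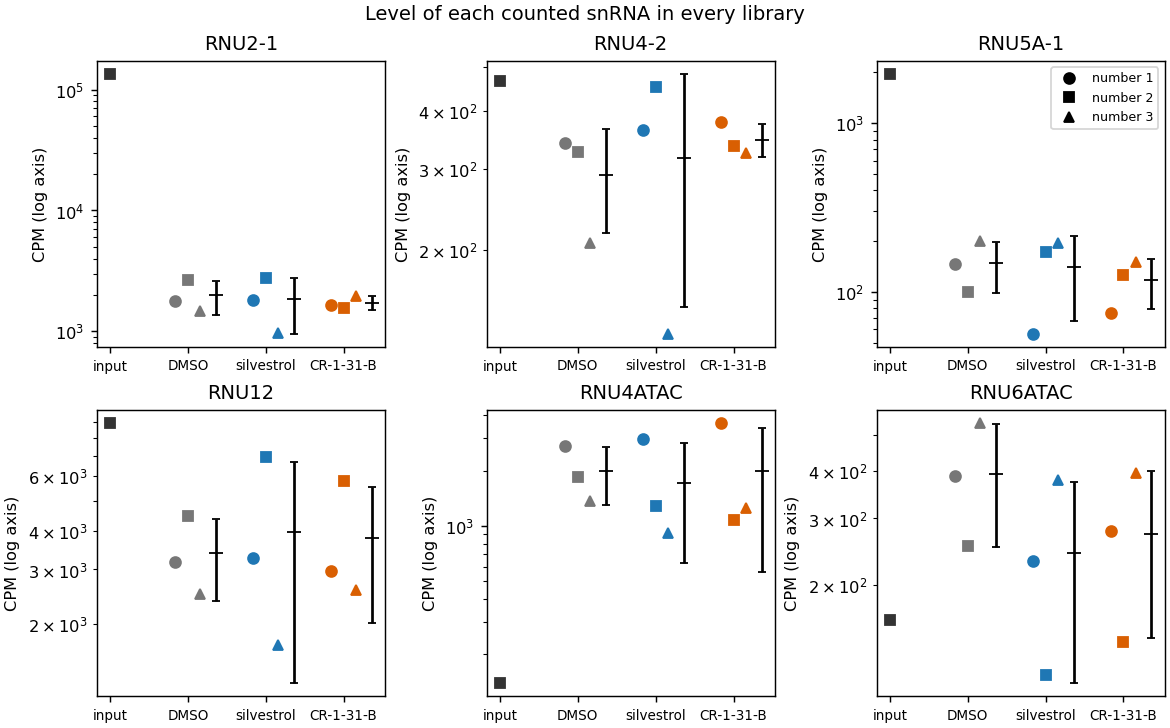
Level in CPM (log axis, scaled separately for each RNA) of the 6 counted snRNAs in the input and in each anti-FLAG library. Symbols give the number of the library, and the black bar is the mean ± SD of 3 libraries. The input lies far above the rest for RNU2-1 and RNU5A-1 and far below them for RNU4ATAC, and the 3 treatment groups overlap in every panel.

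The comparison with the input asks which RNAs are recovered with eIF4A beyond their level in the starting material. With 1 input library it has no test, and a difference was counted where all 3 libraries of a group were at least 2-fold lower, or all 3 at least 2-fold higher, in CPM. Of the 6 RNAs, 2 (RNU2-1 and RNU5A-1) were lower and 1 (RNU4ATAC) was higher in DMSO, and the same 3 RNAs met the rule in the same direction in both compound groups. Over all 27656 features compared for DMSO, 1.9% were lower and 16.9% were higher by this rule. The shares were 3.08% and 20.0% for silvestrol, and 2.82% and 21.1% for CR-1-31-B. Within the ncRNA class, which holds the members, 140 of 2259 features were lower and 166 higher in DMSO. The class had 138 lower and 164 higher of 2238 with silvestrol, and 170 and 165 of 2199 with CR-1-31-B. The 3 comparisons share the input library.

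RNU2-1, the U2 RNA, had 134442 CPM in the input and 1791, 2670 and 1474 CPM in DMSO libraries 1 to 3. With silvestrol, libraries 1 to 3 had 1817, 2769 and 970.0 CPM, and after CR-1-31-B 1640, 1547 and 1970 CPM. All 9 were far below the input. The DMSO mean was 68.0-fold lower, a log2 ratio of -6.09 ± 0.44 (here and below the log2 ratio of the mean CPM, with the SD of the log2 ratios of the libraries, n = 3), and of the 2246 ncRNA features with a ratio, 2243 had a higher one.

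RNU5A-1, a U5 RNA, had 1952 CPM in the input. Its DMSO libraries had 145.6, 99.6 and 200.4 CPM, a mean 13.1-fold lower than the input (log2 -3.72 ± 0.51). With silvestrol it had 56.5, 172.3 and 195.6 CPM and with CR-1-31-B 75.1, 126.7 and 150.7. The U5 copies with their own rows did not all behave alike. RNU5B-1 had a log2 ratio of -3.66 in DMSO, and RNU5F-1 (-3.82) and RNU5D-1 (-2.23) also met the rule for lower. RNU5E-1 had -1.37 and did not. RNU5E-1 went from 18.7% of the summed U5 counts in the input to 46.8% ± 12.7 in DMSO, 60.6% ± 4.21 after CR-1-31-B and 62.5% ± 3.16 after silvestrol. The DMSO libraries (38.5% to 61.4%) overlapped those with CR-1-31-B (56.0% to 64.3%) and silvestrol (60.4% to 66.1%), and this share was not tested between groups. RNU5A-1 went from 28.9% to 16.0% ± 7.36 in DMSO. Summed over its rows, U5 was 6.73-fold lower in DMSO than in the input.

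RNU4ATAC, the U4-type RNA of the minor spliceosome, differed from the input in the other direction. It had 306 counts, or 139.5 CPM, in the input and 2739, 1856 and 1370 CPM in DMSO libraries 1 to 3. With silvestrol it had 2968, 1288 and 916.5 CPM and with CR-1-31-B 3632, 1078 and 1259. The lowest of the 9 was above the input by a log2 ratio of 2.72. The DMSO libraries were 9.82-fold to 19.6-fold above the input, the log2 ratio of their mean CPM was 3.83 ± 0.50, and 17 of the 2246 ncRNA features had a higher ratio.

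RNU6ATAC, its pairing partner, had 161.4 CPM in the input. In DMSO it had 389.3, 254.1 and 536.4 CPM. It had 232.2, 115.5 and 379.6 CPM after silvestrol, and CR-1-31-B gave 278.8, 141.5 and 396.4 CPM. Of the 9, 7 exceeded the input, and the exceptions were library 2 of each compound. The log2 ratio in DMSO was 1.29 ± 0.54, and it did not meet the rule because DMSO library 2 was 1.57-fold above the input. Without that library RNU6ATAC was counted as higher.

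RNU12, the U2 counterpart, had 8909 CPM in the input. In DMSO it had 3169, 4467 and 2499 CPM. After silvestrol the values were 3263, 6938 and 1715 CPM, and CR-1-31-B gave 2970, 5800 and 2570 CPM. All 9 were below the input, with a log2 ratio of -1.40 ± 0.42 for the DMSO mean, but library 2 of each group kept it from meeting the rule (1.99-fold lower in DMSO). Without library 2 it was counted as lower in each group, and also in DMSO when libraries were scaled by the counts outside the ncRNA class or by trimmed means (TMM). RNU4-2 had 464.5 CPM in the input and, in DMSO, 341.7, 326.6 and 206.7 CPM (log2 -0.67 ± 0.40). With silvestrol it had 365.2, 452.1 and 131.6 CPM and with CR-1-31-B 378.8, 336.2 and 325.4, all below the input.

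**Figure D3:**
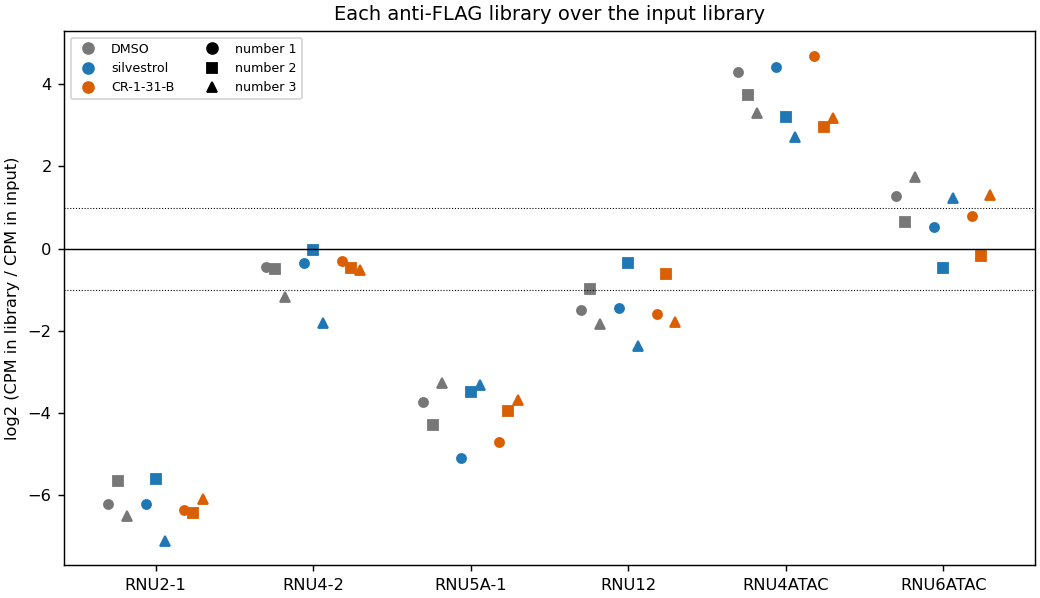
Log2 ratio of CPM in each anti-FLAG library to CPM in the single input library, by RNA. Colours are groups, symbols are library numbers, and dotted lines mark 2-fold. RNU2-1 and RNU5A-1 lie below the lower line in all 9 libraries and RNU4ATAC above the upper line in all 9.

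Variant U1 genes, which have rows of their own, were recovered unequally. In DMSO RNVU1-11 (log2 3.31) and RNVU1-14 (2.56) met the rule for higher and RNVU1-17 (-2.14) that for lower, while RNVU1-7 had 0.75 and RNVU1-19 -0.15. RNVU1-11 went from 12.96% of the counts of the U1 rows in the input to 53.3% ± 1.74 in DMSO. RNVU1-11 is given by name alone. The variant U1 rows together held 235.7 CPM in the input and 567.7 ± 93.8 CPM in DMSO. The rows of RNU1-1, RNU1-2, RNU1-3 and RNU1-4 were at 0, so this sum does not give the level of U1 as a whole. RNVU1-7 matches RNU1-1 at 163 of 164 positions, and how reads of the U1 copies were assigned is not given.

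Other stable RNAs set a frame for these ratios, each list by its median log2 ratio in DMSO. The guide RNAs of the box H/ACA type, which direct pseudouridylation, had a median of -2.53, and 68 of 99 met the rule for lower and 0 that for higher. Among box C/D guides, which direct ribose methylation, 4 of 144 were lower and 23 higher, with a median of 0.32. For U3, U13 and the Cajal body guides that modify snRNAs, 11 of 23 were lower and 2 higher (median -0.86). The 2 higher were SCARNA16 at 1.85 and SCARNA2 at 1.35. The 9 compared RNAs of the 7SK, 7SL, vault, Y, RNase P and RNase MRP kind had a median of -0.03, with 3 lower (RN7SL3 at -4.20, RNY5 at -1.78 and RN7SK at -1.27) and 1 higher (VTRNA1-2 at 1.35). The 6 members had a median of -1.04, the whole ncRNA class 0.12 and all features 0.32. Whether the assignment of reads from multicopy genes had a part in these ratios was not tested.

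Between treatment groups no snRNA passed the test. edgeR's quasi-likelihood test on the 9 anti-FLAG libraries, with Benjamini-Hochberg adjustment over all 24713 features tested, called 0 of 6 members for either compound against DMSO, 0 for both compounds together, and 0 between the compounds. At an unadjusted p under 0.05 this test also had 0 of 6 in each comparison. DESeq2 called 0 and limma voom called 0, the latter with 1 member (RNU6ATAC) under 0.05 before adjustment for silvestrol and for both together. Over all features 0.255% were called for silvestrol, 0.291% for CR-1-31-B, 0.0% between the compounds and 0.49% for both together. Against those shares, 0 of 6 does not set the snRNAs apart from other features. With the library number as a block the shares were 1.28%, 1.48%, 0.00405% and 2.04%, and again 0 of 6 members were called. The blocked fit placed 1 member, RNU6ATAC, under 0.05 before adjustment for each compound against DMSO and for both together. The silvestrol and CR-1-31-B comparisons share the DMSO libraries.

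The 95% intervals of the fit without a block, which leaves out the pairing by number, show the range of changes that this fit left possible. For silvestrol against DMSO the log2 fold change of RNU2-1 was -0.07 (95% interval -0.85 to 0.71), that of RNU12 0.26 (-0.64 to 1.17) and that of RNU4ATAC -0.18 (-1.11 to 0.75). For CR-1-31-B the values were -0.23 (-1.01 to 0.55), 0.15 (-0.76 to 1.05) and -0.02 (-0.95 to 0.92). RNU4-2 had 0.15 (-0.65 to 0.95) with silvestrol and 0.23 (-0.57 to 1.04) with CR-1-31-B, and RNU5A-1 had -0.04 (-0.91 to 0.83) and -0.35 (-1.22 to 0.52). The block gave smaller standard errors. With silvestrol they were 0.22 for RNU12 and 0.23 for RNU4ATAC, where the fit without it gave 0.44 and 0.45. The blocked log2 fold changes with silvestrol were -0.11 for RNU2-1, 0.06 for RNU4-2, -0.18 for RNU5A-1, 0.08 for RNU12 and -0.32 for RNU4ATAC. For CR-1-31-B they were -0.13, 0.29, -0.41, 0.08 and -0.18 in the same order. The standard errors of these blocked estimates ran from 0.21 to 0.32. For every member and compound the CPM ranges of the 3 treated and the 3 DMSO libraries overlapped.

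RNU6ATAC, which holds the 14-base purine run, had the lowest estimates against DMSO among the 6 members. A relation of purine runs to these changes was not tested. The log2 fold change of RNU6ATAC was -0.68 (-1.54 to 0.19) with silvestrol and -0.55 (-1.41 to 0.32) with CR-1-31-B. For both compounds together it was -0.61, with a standard error of 0.35 and an adjusted p of 0.607 (edgeR). All 6 treated libraries were below the DMSO library of their own number, by 0.46 to 1.12 on the log2 scale. Each DMSO library serves both compounds, so these 6 differences are not independent. How often other features show all 6 on the same side was not counted. The fit with the number as a block gave -0.69, with a standard error of 0.20 and an adjusted p of 0.0840 (edgeR), which also missed the threshold. Adjusted p-values over the alternatives ran from that value upward to 0.922. For the other 5 members the 6 treated libraries fell on both sides of their DMSO partners.

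**Figure D4:**
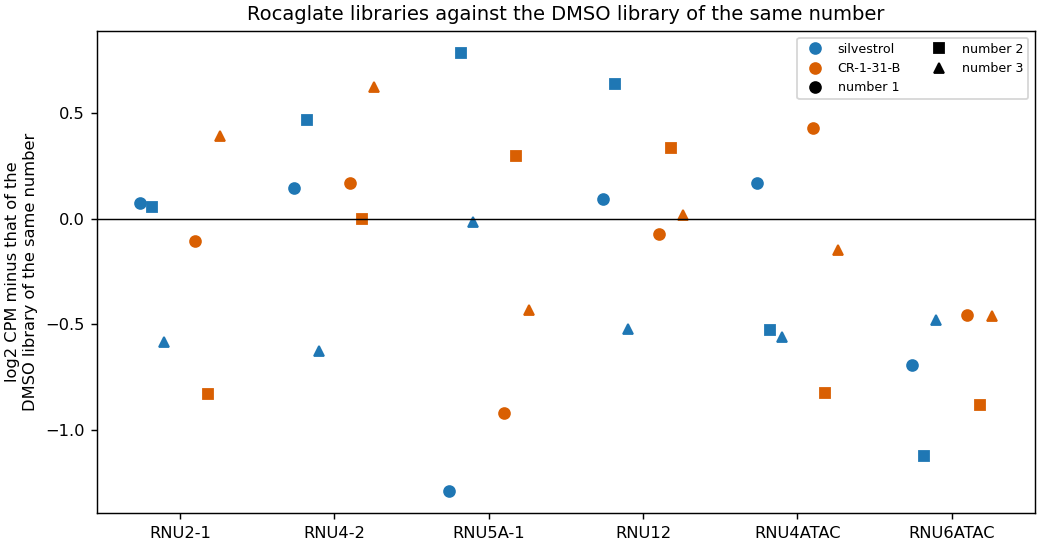
Log2 CPM (TMM-scaled, prior count 2) of each silvestrol or CR-1-31-B library minus that of the DMSO library of the same number. All 6 points of RNU6ATAC lie below 0, between -1.12 and -0.46, and the points of the other 5 RNAs lie on both sides of 0.

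Silvestrol and CR-1-31-B were given at the same dose and for the same time, which makes 1 pair of compounds to compare. The differences (CR-1-31-B minus silvestrol, log2) were -0.16 for RNU2-1 (-0.94 to 0.62), 0.08 for RNU4-2 (-0.72 to 0.88) and -0.31 for RNU5A-1 (-1.18 to 0.56). They were -0.12 for RNU12 (-1.03 to 0.79), 0.17 for RNU4ATAC (-0.77 to 1.1) and 0.13 for RNU6ATAC (-0.74 to 0.99). Each adjusted p was 1.00 as rounded (edgeR, over all features), and these intervals do not show that the compounds act alike on these RNAs. With the number as a block the standard errors of the 6 differences were smaller, 0.22 to 0.31, with estimates from -0.23 to 0.23 and adjusted p-values again of 1.00 (edgeR).

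**Figure D5:**
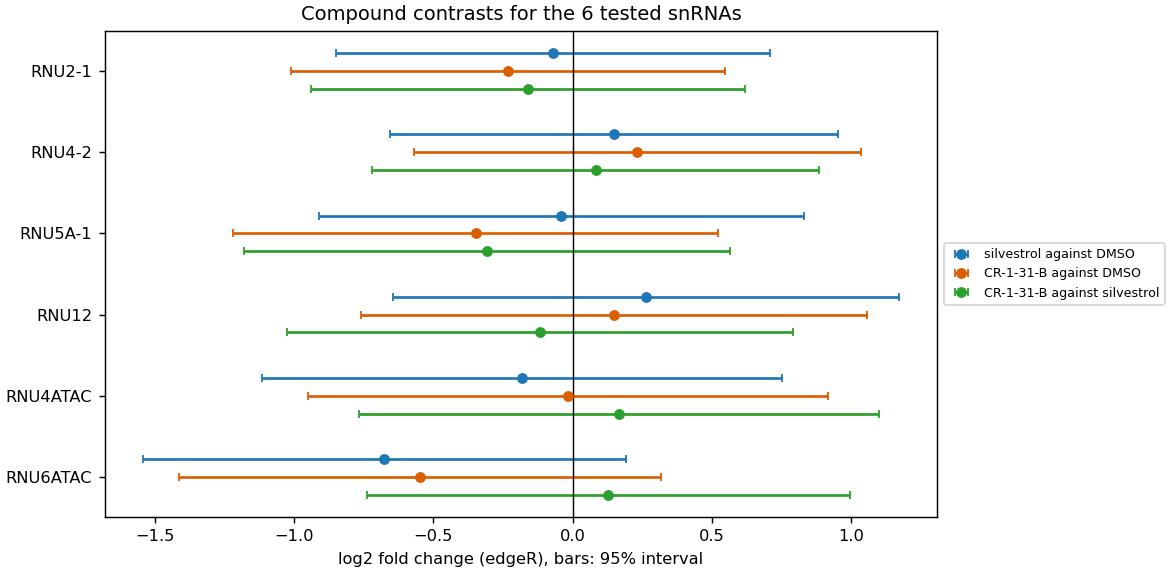
Log2 fold change from edgeR with its 95% interval for the 6 tested snRNAs for each compound against DMSO and for CR-1-31-B against silvestrol. Every interval crosses 0, and the RNU6ATAC estimates against DMSO (-0.68 and -0.55) are the farthest from it.

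The snRNAs varied more between library numbers than between treatments. For RNU12, the mean deviation from the group mean was 0.78 on the log2 scale in the number 2 libraries (0.51 to 1.08 over the 3 groups), -0.15 in number 1 and -0.63 in number 3. These number means spanned 1.41, whereas the 3 group means of RNU12 spanned 0.09. RNU4ATAC was high in number 1 (0.83) and spanned 1.39 over numbers against 0.31 over groups. RNU6ATAC was low in number 2 (-0.71) and high in number 3 (0.64), a span of 1.35 against 0.76 over groups. RNU2-1 (0.74 against 0.18), RNU4-2 (0.89 against 0.27) and RNU5A-1 (1.08 against 0.35) also had the wider span over numbers. What the numbers stand for (a day, a culture or a preparation) is not given in the labels.

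The members did not move as 1 set across the 9 anti-FLAG libraries. As a description, with library and depth shared by the points, Pearson's r of log2 CPM was 0.81 between RNU2-1 and RNU4-2, 0.75 between RNU2-1 and RNU12, and -0.87 between RNU12 and RNU6ATAC. RNU4ATAC and RNU6ATAC, which pair with each other in the cell, had 0.02. Among the 1732 other ncRNA features compared, those most like RNU12 were SNORA33 (0.96), SNORD110 and SNORA60, and those most like RNU2-1 were SNORD90 (0.95), SNORD92 and SNORD54. RNU6ATAC was most like LOC101928465 (0.98) and LOC105374039, followed by the polymerase III transcript RN7SK (0.95). RNU4-2 was most like SNORD111B (0.92), RNU5A-1 like LOC107987141 (0.96) and RNU4ATAC like LOC105370333 (0.87).

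The mRNAs of proteins that work with the snRNAs were read from the same fit, in 7 lists: the proteins of the U1, U2, U5, U4/U6 with tri-snRNP, and minor spliceosome particles, the Sm and LSm proteins, and the factors of snRNA transcription, processing and assembly. Of their tested features, 2 of 69 5′ leaders were called for silvestrol and 2 for CR-1-31-B, all higher. Of 89 coding sequences, 0 were called for silvestrol and 1, higher, for CR-1-31-B, and of 58 3′UTRs none was (0 and 0). With the number as a block, the leaders called were 4 for silvestrol and 5 for CR-1-31-B, again all higher. Over all 7122 leaders tested, 57 were called higher with CR-1-31-B and 61 with silvestrol. The block gave 256 higher and 4 lower with CR-1-31-B, and 264 higher and 0 lower with silvestrol. Over all 8413 coding sequences, 1 was called for silvestrol and 13 for CR-1-31-B, all higher.

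The leader of SNRNP25, a protein of the U11/U12 particle, had 21.5, 8.38 and 31.8 CPM in DMSO. Silvestrol gave 188.4, 122.5 and 193.3 CPM, and CR-1-31-B 126.1, 49.3 and 83.0 CPM. The 6 treated libraries lay above the 3 DMSO libraries, which adds no support because the same fit on these libraries picked the feature. How many other features separate in this way was not counted. The log2 fold change was 3.07 ± 0.46 (SE) with silvestrol, adjusted p = 0.00381 (edgeR), and 2.06 ± 0.45 with CR-1-31-B, adjusted p = 0.0475 (edgeR). The CR-1-31-B call was lost without any 1 of the 3 DMSO libraries, without library 1 or 3 of silvestrol and without library 1 or 2 of CR-1-31-B, with an adjusted p of up to 0.270 (edgeR). It was also lost with limma voom (adjusted p = 0.0558) and in edgeR with only the groups compared (adjusted p = 0.0540).

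The leader of SNRPD2, an Sm ring protein, had 34.5, 19.5 and 4.24 CPM in DMSO, the last from 4 counts, near the floor of 3. Silvestrol gave 132.4, 82.7 and 94.3 CPM, and CR-1-31-B 116.1, 122.8 and 51.3 CPM. Its log2 fold changes were 2.42 (adjusted p = 0.0395, edgeR) and 2.30 (adjusted p = 0.0482, edgeR). Both calls were lost without any 1 DMSO library, and each in 6 of the 9 fits without 1 library. The coding sequence of USP39, a tri-snRNP factor, had 53.2, 25.1 and 38.2 CPM in DMSO. CR-1-31-B gave 167.0, 200.9 and 140.9 CPM, and silvestrol 79.8, 51.8 and 75.7 CPM, the latter overlapping DMSO. It rose by 2.12 with CR-1-31-B (adjusted p = 0.0104, edgeR), a call lost without any 1 DMSO library or without CR-1-31-B library 1 or 2. With silvestrol its value was 0.86 (adjusted p = 0.519, edgeR), and the difference between the compounds, 1.26, did not pass the test (adjusted p = 1.00, edgeR).

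No other feature of the lists passed in the fit without a block. The leader of SNRNP200, the U5 helicase that unwinds U4 from U6, had 1.84 with silvestrol (adjusted p = 0.182, edgeR) and 2.04 with CR-1-31-B (adjusted p = 0.113, edgeR). With the number as a block it was called higher for both (adjusted p = 0.0114 and 0.00651, edgeR). For both compounds together, the 8 leaders of U5 proteins had a median log2 fold change of 0.94 beside 0.36 over all leaders. The median was 0.40 for 12 leaders of Sm and LSm proteins, -0.04 for 12 of U2 proteins and -0.04 for 19 of the transcription and assembly factors. It was 0.38 for 7 leaders of U1 proteins, 0.32 for 6 of U4/U6 and tri-snRNP proteins and 0.34 for 5 of minor spliceosome proteins. The leader of SNRPB, another Sm protein, had 1.55 for both compounds together (adjusted p = 0.0918, edgeR) and was called higher with the block (adjusted p = 0.00232, edgeR). With the block the leader of SNRPG, also an Sm protein, was called higher for CR-1-31-B (adjusted p = 0.0477, edgeR), where the fit without it gave 1.41 (adjusted p = 0.194, edgeR). The coding sequence of SNRNP35, a U11 protein, had 2.18 for both together (adjusted p = 0.153, edgeR). Its DMSO libraries held 1, 6 and 5 counts, near the floor of 3 counts.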

How the data were processed

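Members and gene lists were chosen with earlier results of these data known. Per the submitters' processing notes the reads went through cutadapt and Bowtie 1.1. The genome build, annotation, strand setting, duplicate removal and treatment of multiply mapping reads are not given in the sources used here. The authors deposited whole-number counts per symbol in 7 classes (5′ leader, coding sequence, 3′UTR, ncRNA, transcript, pseudogene, LINC) for each of 10 libraries, and 1 blank line per table was left out. Libraries were grouped by their titles. Contrasts were fitted to the 9 anti-FLAG libraries with edgeR 4.0.16 (filterByExpr, TMM, glmQLFTest, adjusted p under 0.05, no block). The same fit was also run on simulated counts without an effect of the library number, a check of the code alone. CPM is relative to library totals. Over the input, features needed a mean of 5 CPM between the input and the group. Named are all members, other snRNA rows with a mean of 5 CPM or more, called features of the protein lists with at most 2 others of smallest p per list and contrast, and the 3 ncRNA features most like each tested member. Alternatives used DESeq2 1.42.0, limma 3.58.1, other scalings and filters, the number as a block, and each library left out. Libraries with the same number deviated together from their group means over all features (correlations of 0.102 to 0.263 over 9 pairs, against -0.203 to 0.0163 over the 18 other pairs). On that ground they were taken as pairs in the blocked fit and in the same-number differences. The leading fit and its intervals leave the pairing out. The sequence of 1 member with counts is not reported here.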

Additional observations from a re-analysis of the deposited data

How the results depend on the processing

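The counts of members called between treatments were 0 in each of the 4 comparisons under every alternative run: the replicate block (0), other scalings, DESeq2, limma voom, no filter, only the groups compared, and each library left out. The block, taken on the pairing seen in the data, changed no member's call. It moved the counts over all features as given above. Among the protein lists it changed the calls given above. Single log2 fold changes, none of them called, turned sign where they lay near 0. RNU4ATAC with CR-1-31-B was 0.0081 when scaled outside the ncRNA class, 0.068 with no filter and 0.0086 with only the groups compared. RNU12 between the compounds was 0.023 with limma voom. Over the fits without 1 library, the values that changed sign ran, for silvestrol against DMSO, RNU2-1 -0.50 to 0.29, RNU4-2 -0.21 to 0.53, RNU5A-1 -0.34 to 0.34, RNU12 -0.43 to 0.63 and RNU4ATAC -0.81 to 0.15. They ran, for CR-1-31-B against DMSO, RNU2-1 -0.40 to 0.12, RNU12 -0.29 to 0.48 and RNU4ATAC -0.78 to 0.33. They ran, between the compounds, RNU2-1 -0.49 to 0.27, RNU4-2 -0.31 to 0.45, RNU12 -0.61 to 0.59, RNU4ATAC -0.60 to 0.81 and RNU6ATAC -0.22 to 0.56. They ran, for both together, RNU2-1 -0.36 to 0.20, RNU5A-1 -0.36 to 0.083, RNU12 -0.14 to 0.54 and RNU4ATAC -0.47 to 0.23. RNU6ATAC stayed below 0 against DMSO in all 18, 18 and 17 fits of its comparisons with silvestrol, CR-1-31-B and both. Against the input, 2 RNAs lower and 1 higher held in most settings. In DMSO, without library 2 the count higher was 2 (range over the fits without 1 library 1 to 2) and the count lower 3. The count lower was 3 also without library 2 of silvestrol or CR-1-31-B, with scaling outside the ncRNA class (DMSO and CR-1-31-B) and with TMM (DMSO). The summed share in DMSO, 0.818% of all counts, was 5.25% of the ncRNA counts. Scaling outside the ncRNA class moved the log2 ratio of RNU2-1 in DMSO to -6.56. The comparison with the input rests on 1 input library. Against DMSO, with 3 libraries a group, the 95% intervals of the fit without the block had upper ends from 0.19 to 1.17 and lower ends from -1.54 to -0.57 (log2). A doubling lay inside those of RNU12 for both compounds and of RNU4-2 for CR-1-31-B. A halving lay inside those of RNU6ATAC for both, RNU4ATAC for silvestrol, and RNU2-1 and RNU5A-1 for CR-1-31-B. These limits hold for the fit without the block alone, and the block gave narrower ones. With it RNU12 was 0.08 for silvestrol (standard error 0.22) and 0.08 for CR-1-31-B (0.21), and RNU4ATAC was -0.32 for silvestrol (0.23).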
